A study of Mus musculus with 4 samples.

Results

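Chemokines are small secreted proteins that direct the movement of leukocytes, and the genes of these ligands and of their receptors were examined in the aging mouse lower eyelid. The family was chosen by gene name, as all genes whose symbols begin with Ccl, Cxcl, Cx3cl, Xcl, Ccr, Cxcr, Cx3cr, Xcr, Ackr or Ccrl followed by a digit. By this rule 54 genes were members among the 15816 that appear in at least 1 of the tables, 32 of them ligands and 22 receptors. RNA of whole lower eyelid, the tissue that carries the meibomian glands, had been sequenced from wild-type C57BL/6 mice. The 4 libraries came from 1 male and 1 female group aged 3 months and 1 male and 1 female group aged 2 years, here called young male, young female, old male and old female. No group carried a transgene or received a treatment, and the number of animals behind each library is not in the labels. There was 1 library per group, so that no difference between 2 libraries has a replicate check. Because whole tissue was used, fewer cells of a type and less RNA per cell cannot be told apart.

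A chemokine binds a receptor with 7 membrane spans on the target cell, which signals through an inhibitory G protein and turns the cell toward higher ligand concentrations. Inflammatory chemokines are induced during injury or infection and recruit neutrophils, monocytes and effector lymphocytes, while homeostatic chemokines place lymphocytes and dendritic cells in skin, mucosa and lymphoid tissue. Atypical receptors bind chemokines without G protein signalling and remove or transport them. At the ocular surface, epithelium, fibroblasts, vessels and resident leukocytes can all supply members of the family.

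Levels are RPKM, read density scaled to gene length and library total, as the authors deposited them. The lowest level listed was 0.12502 to 0.12513 RPKM depending on the library, and a gene that is missing from a library's table was below that. The 4 tables listed 14800 to 15299 genes, and their summed base coverage was 3.16 to 3.91 gigabases, lowest in the old female library. Read numbers behind single genes are estimates, with 100 bases of coverage taken as 1 read. The 6 meibocyte genes, which mark the lipid cells of the gland, were listed in all libraries. They summed to 7008 RPKM in the young male library, 2865 RPKM in the young female, 5225 RPKM in the old male and 10034 RPKM in the old female, and all 6 were at least 2-fold lower in the young female than in the young male. Other tissue markers differed most in the old female library. The summed level of 5 keratinocyte genes was 3256 RPKM there against 6910 to 7755 RPKM in the other 3 libraries. Krt5 and Krt14 made most of that sum. Krt1 was at 6.46 RPKM there against 380 to 515 RPKM elsewhere. Krt10 was at 17.5 RPKM against 512 to 732 RPKM, and Lor at 3.02 RPKM against 65.8 to 173 RPKM. The 4 conjunctival epithelium genes summed to 1554 RPKM there against 4540 to 7104 RPKM elsewhere, although Muc5ac was highest there, at 457 RPKM. The sum of 5 fibroblast genes was 201 RPKM there, against 74.5 RPKM in the old male library, 25.9 RPKM in the young female and 29.7 RPKM in the young male. The part of these differences in tissue markers in the chemokine values was not tested, and each age comparison is given for females and for males, where the old female library takes no part. Tissue markers differed between the male libraries too, with 436 RPKM of 4 skeletal muscle genes in the old and 160 RPKM in the young.

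Of the 54 members 45 were listed in all 4 libraries and 9 in some. Another 8 annotated family genes were listed in none: Ccl21a, Ccl21b, Ccl26, Ccl27b, Cxcl11, Cxcl15, Ccr1l1 and Ccr3, the last of these the eotaxin receptor. Ccl21a, Ccl21b and Ccl27b share 50.3%, 100% and 97.85% of their 100-base transcript stretches with other annotated genes. For these genes, absence from the lists does not show that they were not expressed. The ligands together made 208 RPKM in the young male library, 262 RPKM in the young female, 281 RPKM in the old male and 318 RPKM in the old female. Receptors were far lower as a group and summed to 47.6, 38.5, 41.4 and 56.6 RPKM in the same order. In each library 3 ligands made 60.4% to 63.9% of the ligand total, and Cxcl17 and Cxcl14 were always the first and second. Among the receptors Cxcr4, Cxcr2 and Cxcr6 made 61.5% to 66.8% of the total in each library. Cxcr6 overlaps the gene Fyco1, Cxcl16 overlaps Zmynd15 and Cxcl17 overlaps 4732471J01Rik. The counting rule and strand setting are not stated, so some of their reads may belong to those genes.

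**Figure D1:**
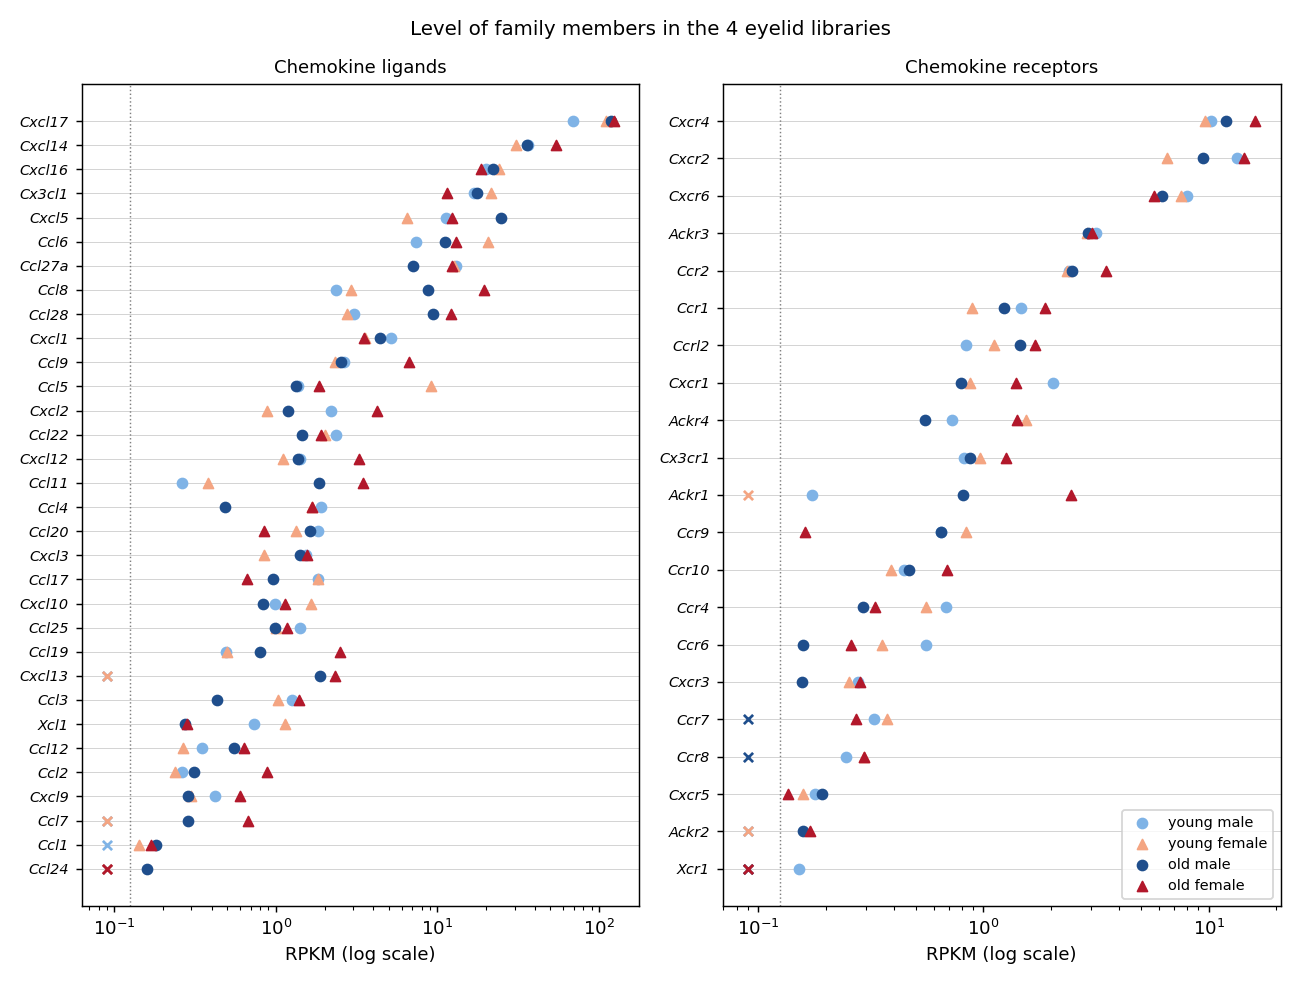
Level of listed members in the 4 libraries, on a log RPKM axis, with ligands on the left and receptors on the right, ordered by mean level. Circles are males and triangles females, light symbols 3 months and dark symbols 2 years, and crosses left of the dotted line at the listing limit mark libraries that do not list the gene. Cxcl17 was the highest ligand in every library, between 69.0 and 124 RPKM, while Cxcl13 was listed only in the old libraries.

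The most abundant ligand was Cxcl17, a chemokine of mucosal epithelia. Its level was 69.0 RPKM in the young male library, 109.8 RPKM in the young female, 119 RPKM in the old male and 124 RPKM in the old female. The young male library was thus the low one, and the other 3 lay close together. Cxcl14, a homeostatic chemokine of skin and other epithelia, stood at 36.5, 30.5, 35.8 and 54.2 RPKM in the same order, with the old female library highest. Cxcl16, a membrane-bound chemokine that can be shed, was next on average, although Cxcl5 passed it in the old male library and Ccl8 in the old female, and it varied least of these 3, between 18.5 RPKM in the old female and 24.1 RPKM in the young female.

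Of the 54 members, 34 averaged 1 RPKM or more across the libraries and were analysed further, 25 ligands and 9 receptors. Ratios are log2((RPKM + 1)/(RPKM + 1)), a scale that understates changes of low genes, and a gene is counted as apart where this ratio is at least 2-fold. Between the old and the young female library 9 members (26.5%) were higher in the old by 2-fold or more, and 1 (2.94%) was lower by as much. Over all 12094 analysed genes 5.33% were that much higher and 3.37% that much lower, 8.71% in all. The 9 were the ligands Ccl8, Ccl28, Cxcl13, Ccl11, Cxcl2, Ccl19, Ccl9 and Cxcl12 and the receptor Cxcr2, and the 1 lower was Ccl5. Between the old and the young male library 5 members, all ligands (14.7%), were higher in the old by 2-fold or more and 0 were lower. The 5 were Ccl8, Cxcl13, Ccl28, Ccl11 and Cxcl5, and the share of all genes was 0.827% higher and 0.215% lower, 1.04% in all. The median log2 ratio of the members was 0.29 in females, where that of all genes was 0.07, and -0.05 in males, where that of all genes was -0.01. The share of members at least 2-fold apart was thus above that of all genes in both sexes, while the middle of the family lay near 0 in males. A pseudocount of 5 in place of 1 compresses low values further. With it 3 members were apart in females, Ccl8, Ccl28 and Ccl5, beside 4.62% of all genes, and 0 in males, beside 0.43%. At a pseudocount of 0.1 the members apart in females numbered 11, with 2 of them lower in the old, beside 11.6% of all genes. In males 8 were then apart, beside 2.1%, and Ccl3, Ccl4 and Cxcr1 among them were lower in the old.

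**Figure D2:**
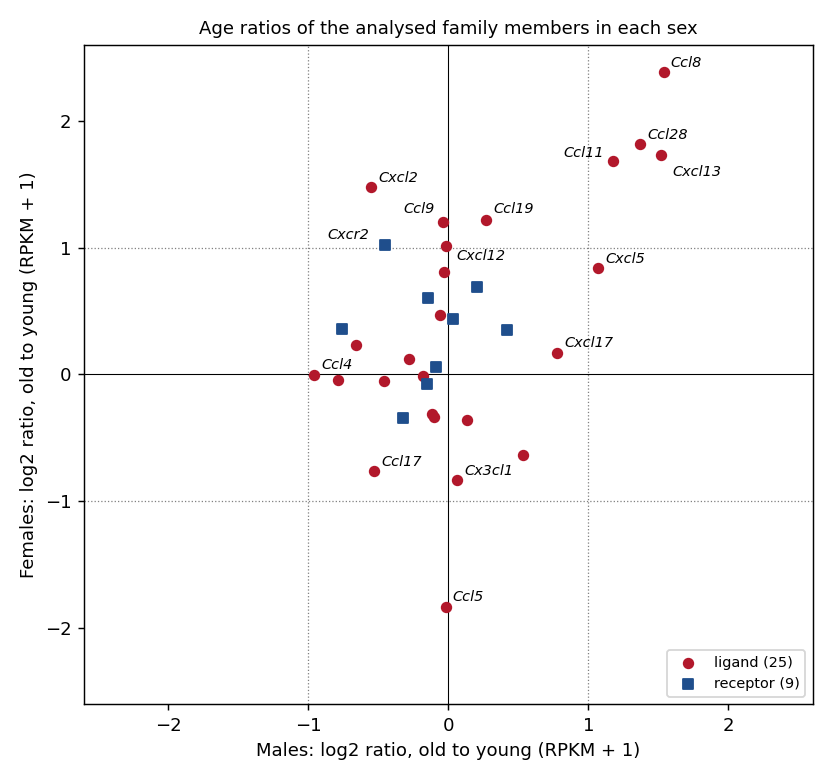
Log2 ratio of old to young, on the log2(RPKM + 1) scale, in females (vertical axis) against males (horizontal axis) for the 34 analysed members, with 25 ligands as red circles and 9 receptors as blue squares. Dotted lines mark 2-fold. Ccl8, Ccl28, Cxcl13 and Ccl11 are the 4 points past 2-fold in both sexes, and Cxcl2, Cxcr2, Ccl9 and Cxcl12 are past it in females with ratios below 0 in males.

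The 4 ligands that exceeded 2-fold in the old library of both sexes were Ccl8, Ccl28, Cxcl13 and Ccl11. Of all analysed genes 0.579% met the same criterion, and 0.107% were at least 2-fold lower in both, as 0 members were. Ccl8 attracts monocytes and T cells and in the mouse acts through Ccr8. It was at 2.35 RPKM in the young male library, 2.91 RPKM in the young female, 8.71 RPKM in the old male and 19.4 RPKM in the old female. Both old libraries were above both young ones, and the RPKM ratio of old to young was 6.67 in females and 3.71 in males. With 51 to 349 reads behind each value, the 95% intervals of these ratios ran from 5.08 to 8.89 and from 2.71 to 5.15. Such intervals, here and in what follows, are exact binomial intervals that cover counting error only and say nothing of the spread between animals.

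Ccl28, the mucosa-associated epithelial chemokine, recruits antibody-secreting cells through Ccr10 and also binds Ccr3. Its level was 3.02 RPKM in the young male library, 2.75 RPKM in the young female, 9.40 RPKM in the old male and 12.2 RPKM in the old female. Both young libraries lay within 1 RPKM of each other and both old ones were more than 2-fold above them. The ratio was 4.44 in females (interval 3.99 to 4.95) and 3.11 in males (2.80 to 3.45), with 429 to 1607 reads per library, the deepest counting among these 4 genes. Its receptor Ccr10 was low, at 0.445, 0.387, 0.469 and 0.690 RPKM in the order young male, young female, old male and old female, and it overlaps its neighbour Cntnap1.

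Cxcl13 attracts B cells through Cxcr5 and is best known from lymphoid follicles. It was listed in neither young library, and stood at 1.87 RPKM in the old male and 2.32 RPKM in the old female, with 95 and 96 reads. The authors' deposited table gives its values below the listing limit, 0.0810 RPKM in the young male and 0.0614 RPKM in the young female. The old libraries therefore did not overlap the young ones. Cxcr5 stayed between 0.135 and 0.192 RPKM, with 13 to 22 reads in each library. Of the B and plasma cell markers, Cd79a and Ms4a1 were listed in no library. The immunoglobulin J chain gene Igj, another marker, was at 1.07, 0.786, 2.91 and 8.19 RPKM in the order young male, young female, old male and old female, so that it was higher in the old libraries as Cxcl13 was. The part of such cells in the Cxcl13 values was not tested.

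Ccl11, or eotaxin-1, recruits eosinophils through Ccr3. It was at 0.263 RPKM in the young male library, 0.379 RPKM in the young female, 1.86 RPKM in the old male and 3.44 RPKM in the old female. The groups did not overlap, and the ratio was 9.06 in females (interval 5.45 to 16.0) and 7.07 in males (3.85 to 14.2), both with only 12 and 17 reads in the young libraries. Of the 4 eosinophil markers only 1, the ribonuclease gene Ear2, was listed and could be compared. Epx, Prg2 and Siglec5 were listed in no library, and neither was Ccr3. Ear2 was at 10.7, 16.6, 0.868 and 0.987 RPKM in the order young male, young female, old male and old female, lower in the old. The part of eosinophils in the Ccl11 values was not tested.

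Beside these 4 ligands, 4 of 4 analysed fibroblast markers were higher in the old female by 2-fold or more and 2 of 4 in the old male library. All 4 skeletal muscle markers were higher in the old by 2-fold or more in both sexes, as the 4 ligands were, with sums of 160 RPKM in the young male, 126 RPKM in the young female, 436 RPKM in the old male and 813 RPKM in the old female. The part of fibroblasts and of muscle in the ligand values was not tested. To show whether these 4 genes share a start-site sequence, the 150 bases before the annotated start are printed for the 3 of them that the RefSeq promoter table (build GRCm38.p6) holds. All are on the plus strand, and capitals mark the TATA box, searched as TATAAA on both strands. The Ccl8 stretch lies at chr11:82115035-82115184, that of Ccl28 at chr13:119623669-119623818 and that of Cxcl13 at chr5:95956789-95956938.
Ccl8: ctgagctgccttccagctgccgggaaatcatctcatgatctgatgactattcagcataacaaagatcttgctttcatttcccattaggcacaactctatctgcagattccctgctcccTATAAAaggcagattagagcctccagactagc
Ccl28: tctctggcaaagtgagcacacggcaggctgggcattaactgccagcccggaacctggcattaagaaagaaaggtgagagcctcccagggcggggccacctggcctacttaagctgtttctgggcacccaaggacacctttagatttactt
Cxcl13: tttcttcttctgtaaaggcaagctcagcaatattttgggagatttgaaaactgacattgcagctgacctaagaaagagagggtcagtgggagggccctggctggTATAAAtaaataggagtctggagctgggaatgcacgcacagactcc
Ccl8 held TATAAA 32 to 27 bases before the start and Cxcl13 held it 46 to 41 bases before, while these letters were absent from the Ccl28 stretch. Within 250 bases before the start, 12.4% of all 32851 promoters in the table held TATAAA, and 12 of 41 member genes in the table did (29.3%). A match describes the sequence and does not show that the site is used.

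The limma fit with age and sex as terms set both old against both young libraries and left 1 residual degree of freedom, which measures how far the sexes differ in their age ratio. It called 0 of the 34 members and 0 of all 12094 genes (0.0%) at a Benjamini-Hochberg adjusted p of 0.05, and 6 members and 355 genes had an unadjusted p under 0.05. The averaged log2 difference of old and young was 1.96 ± 0.27 (SE) for Ccl8, 1.63 ± 0.21 for Cxcl13, 1.59 ± 0.20 for Ccl28, 1.43 ± 0.23 for Ccl11 and 0.95 ± 0.18 for Cxcl5, each with a limma adjusted p of 1. The remaining member with an unadjusted p under 0.05 was Ccl17, at -0.65 ± 0.20. With the old male library left out, which sets the old female library alone against both young ones and assumes that it varies as they do, limma called 4 members, Ccl8, Ccl28, Cxcl13 and Ccl11, at a lowest adjusted p of 0.0301, along with 153 of all genes. With any other library left out it called 0 members. By order alone, 10 members were higher in both old than in both young libraries (29.4%, against 18.6% of all genes) and 5 were lower (14.7%, against 13.1%). The share below was close to that of all genes.

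**Figure D3:**
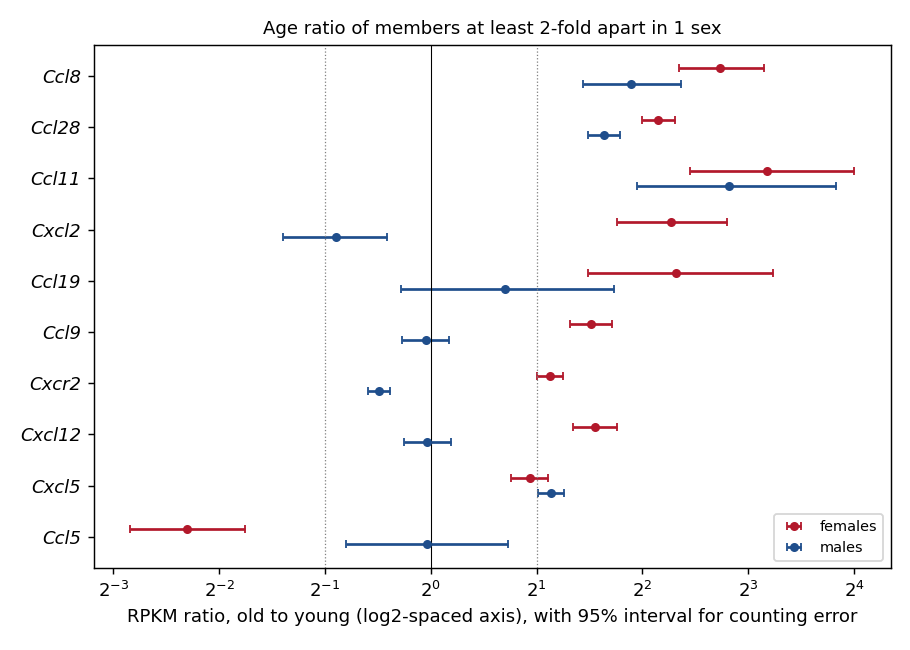
Ratio of old to young RPKM in females (red) and males (blue) for members at least 2-fold apart with age in at least 1 sex, on an axis in powers of 2, with 95% intervals for counting error as bars. Cxcl13 is left out because neither young library lists it. The intervals of Ccl8, Ccl28 and Ccl11 lie above 2-fold in both sexes. Those of Cxcl2, Ccl19, Cxcl12, Ccl9 and Cxcr2 do so in females and that of Cxcl5 in males. The intervals of Cxcl2 and Cxcr2 lie on opposite sides of 1 in the sexes.

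Many chemokine genes sit side by side on the chromosome, and 2 runs of neighbours on chromosome 11 differed in their pattern. The 6 genes Ccl2, Ccl7, Ccl11, Ccl12, Ccl8 and Ccl1, at chr11:82035577-82179812 in mm10, summed to 3.22 RPKM in the young male library, 3.93 RPKM in the young female, 11.9 RPKM in the old male and 25.2 RPKM in the old female. Each of the 6 had a higher value in the old than in the young library of both sexes, with missing values taken as 0. The matching shares, here and for the second run, were not counted over all genes. Such counts are therefore not a result about the runs. Ccl8 made most of the sum, and the monocyte attractants beside it were low. Ccl2, the main ligand of Ccr2, was at 0.263, 0.238, 0.313 and 0.880 RPKM in the same order, and its ratio was 3.70 in females (interval 1.62 to 9.50) and 1.19 in males (0.449 to 3.25). Ccl7, which binds Ccr2 and other receptors, was listed only in the old libraries, at 0.287 RPKM in the male and 0.675 RPKM in the female. Ccl12, a mouse chemokine for monocytes, was at 0.351, 0.268, 0.553 and 0.635 RPKM, with intervals of both ratios that included 1. Ccl1, a ligand of Ccr8, rested on at most 4 reads in any library. Of the 6 genes, then, Ccl8 and Ccl11 had intervals above 1 in both sexes and Ccl2 in females, and Ccl7 had no interval because the young libraries do not list it.

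**Figure D4:**
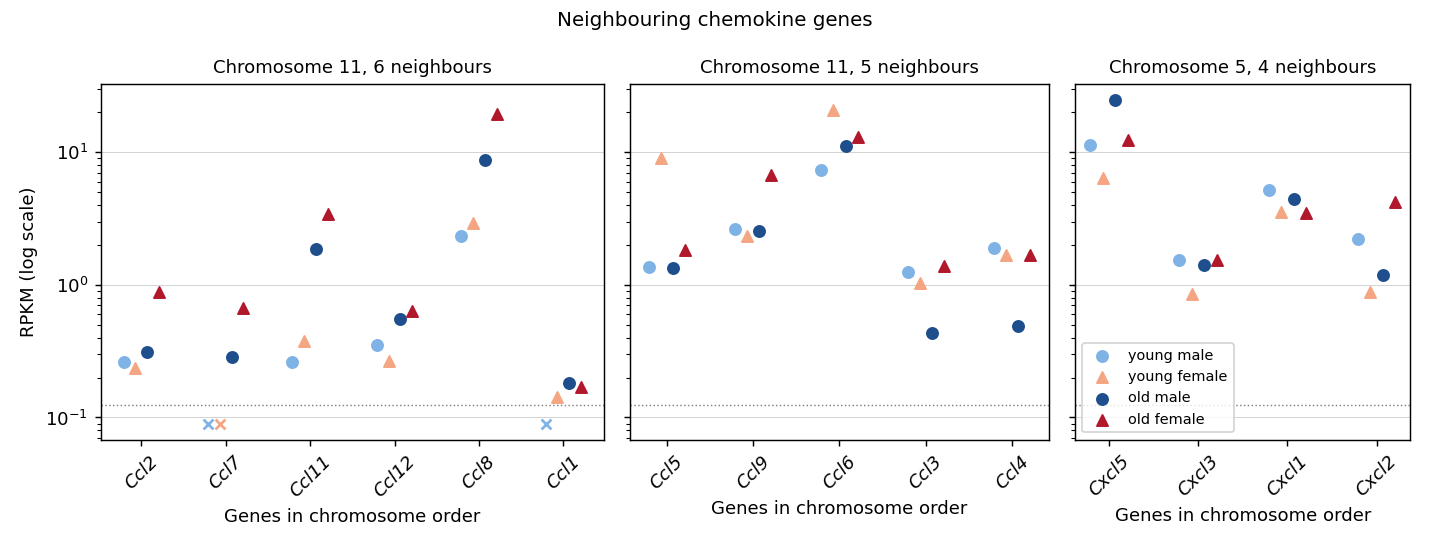
Levels of the members of 3 runs of neighbouring chemokine genes in the 4 libraries, in chromosome order, on a log RPKM axis, with symbols as in the plot of all levels and crosses for libraries that do not list the gene. In the run of 6 both old libraries have the highest values of Ccl7, Ccl11, Ccl12 and Ccl8, in the run of 5 the young female library is highest for Ccl5 and Ccl6, and in the run of 4 the old male library is highest for Cxcl5 and the old female for Cxcl2.

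The second run, Ccl5, Ccl9, Ccl6, Ccl3 and Ccl4 at chr11:83525779-83664683, codes for inflammatory ligands, several of which act through Ccr1. Here the age ratios did not go one way, with 2 of the 5 higher in the old female and 1 of the 5 higher in the old male. Ccl5, or RANTES, is made by activated T and natural killer cells. It was at 1.37 RPKM in the young male library, 9.11 RPKM in the young female, 1.34 RPKM in the old male and 1.84 RPKM in the old female. The young female library alone was high, and its value was 4.95 times that of the old female (interval 3.39 to 7.19) and 6.64 times that of the young male (4.53 to 10.02). The sum of the cytotoxic cell markers was also highest in the young female. Of the 5 markers 4 were listed, all but Ncr1. They summed to 2.49, 16.1, 2.64 and 4.18 RPKM in the order young male, young female, old male and old female. Granzyme A (Gzma) made most of the young female sum, at 12.7 RPKM. Prf1 was nearly level, between 0.138 and 0.182 RPKM, while Gzmb and Nkg7 were also highest in the young female. The interferon-induced genes were also highest there, with a sum of 264 RPKM in the young female and 97.2 to 169 RPKM elsewhere. The part of either in the Ccl5 value was not tested.

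Ccl6, a constitutive myeloid chemokine of the mouse, was likewise highest in the young female, at 20.7 RPKM, against 7.37 RPKM in the young male, 11.1 RPKM in the old male and 13.0 RPKM in the old female. Its neighbour Ccl9, made by macrophages and follicle-associated epithelium, had a different high library. It was at 2.63 RPKM in the young male, 2.34 RPKM in the young female, 2.54 RPKM in the old male and 6.68 RPKM in the old female, a ratio of 2.86 in females (interval 2.49 to 3.28) and 0.966 in males (0.828 to 1.13). Ccl3 and Ccl4, the macrophage inflammatory proteins, shared a low value in the old male. Ccl3 was at 1.26, 1.03, 0.432 and 1.38 RPKM and Ccl4 at 1.89, 1.67, 0.487 and 1.67 RPKM in the order young male, young female, old male and old female. The old to young ratio in males was 0.344 (interval 0.176 to 0.625) for Ccl3 and 0.257 (0.130 to 0.461) for Ccl4, from 14 or 15 reads in the old male, and neither reached 2-fold on the log2(RPKM + 1) scale. Their receptor Ccr1 was at 1.46, 0.888, 1.23 and 1.87 RPKM, highest in the old female. The 7 macrophage markers summed to 169, 120, 122 and 246 RPKM, likewise with the old female highest. Lyz2 led that sum, at 90.6, 57.1, 58.4 and 165 RPKM. Cd68, the next largest, was highest in the young male, at 58.5 RPKM against 41.4 to 46.5 RPKM elsewhere. The other markers of that list were highest in the old female. The part of macrophages in these values was not tested.

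Neutrophils are drawn by Cxcl1, Cxcl2, Cxcl3 and Cxcl5 through Cxcr2. The 4 ligand genes lie together at chr5:90759298-90905938 and summed to 20.2 RPKM in the young male library, 11.7 RPKM in the young female, 31.9 RPKM in the old male and 21.6 RPKM in the old female. Cxcl5, which epithelial cells produce, made the largest share in each library. It was at 11.3, 6.44, 24.8 and 12.3 RPKM in the order young male, young female, old male and old female, so that each old library was above the young one of its sex and each male library above the female one of its age. The age ratio was 2.20 in males (interval 2.02 to 2.40) and 1.91 in females (1.70 to 2.15). Cxcl1, the most widely induced of the group, was nearly level, at 5.15, 3.55, 4.43 and 3.51 RPKM, and both age intervals included 1. Cxcl2 showed opposite directions, at 2.21 RPKM in the young male, 0.876 RPKM in the young female, 1.18 RPKM in the old male and 4.22 RPKM in the old female. Its ratio was 4.82 in females (3.38 to 6.96) and 0.537 in males (0.379 to 0.749), on 40 to 162 reads. Cxcl3, a close copy of Cxcl2 with which it shares 1.88% of its 100-base stretches, was at 1.53, 0.847, 1.42 and 1.55 RPKM, the young female lowest.

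Cxcl1, Cxcl2 and Cxcl3 are closely related neighbours that differed in their order of libraries, and their promoters are printed to compare them, as the 150 bases before the RefSeq start (GRCm38.p6, plus strand). Capitals mark a match to the NF-kB motif GGGA, any base, TT, any base, CC, searched on both strands, and in Cxcl3 the TATA box TATAAA as well, with no overlap between these. The stretches lie at chr5:90891095-90891244 for Cxcl1, chr5:90903749-90903898 for Cxcl2 and chr5:90785951-90786100 for Cxcl3.
Cxcl1: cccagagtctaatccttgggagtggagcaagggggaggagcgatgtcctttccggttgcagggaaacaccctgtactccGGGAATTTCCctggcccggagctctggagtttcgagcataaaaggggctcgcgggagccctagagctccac
Cxcl2: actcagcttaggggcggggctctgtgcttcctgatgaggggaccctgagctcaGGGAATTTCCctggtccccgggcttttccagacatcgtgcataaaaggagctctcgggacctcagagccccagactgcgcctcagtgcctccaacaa
Cxcl3: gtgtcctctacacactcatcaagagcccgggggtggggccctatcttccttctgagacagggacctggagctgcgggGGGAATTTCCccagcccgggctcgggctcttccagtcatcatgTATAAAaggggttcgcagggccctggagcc
All 3 held the same letters, GGGAATTTCC, at 71 to 62 bases before the start in Cxcl1, 97 to 88 in Cxcl2 and 73 to 64 in Cxcl3. Within 250 bases before the start, this NF-kB motif occurred in 0.98% of all 32851 promoters and in 5 of 41 member genes (12.2%), these 3 and Ccr6 and Cxcl10. An interferon-response motif, GAAA followed after 2 further bases by GAAA, occurred in 2.98% of all promoters and in 3 of 41 member genes (7.32%), Ccl19, Cxcl10 and Cxcl14. Member shares are again per gene, over 47 promoters, and the shares of all are per promoter. The genes with and without a match were not compared in level.

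Cxcr2, the neutrophil receptor for these ligands, was among the highest receptors of the lid. It stood at 13.3 RPKM in the young male library, 6.56 RPKM in the young female, 9.49 RPKM in the old male and 14.4 RPKM in the old female. The ratio of old to young was 2.19 in females (interval 2.01 to 2.38) and 0.712 in males (0.662 to 0.767), and the log2 ratio in females was 1.02, just past the 2-fold limit. Its neighbour Cxcr1 binds fewer of these ligands and was highest in the young male. It was at 2.04, 0.867, 0.792 and 1.40 RPKM in the order young male, young female, old male and old female. The age ratio of Cxcr1 was 1.61 in females (interval 1.06 to 2.48) and 0.389 in males (0.261 to 0.568). Neutrophil markers were near 0. Ly6g, Mpo and Elane were listed in no library, and Csf3r and Retnlg summed to 1.02, 0.306, 1.09 and 2.47 RPKM, lowest in the young female and highest in the old female as Cxcr2 was. The meibocyte sums given above, from 2865 RPKM in the young female through 5225 RPKM in the old male and 7008 RPKM in the young male to 10034 RPKM in the old female, had the same order of all 4 libraries as Cxcr2. The part of neutrophils and of gland tissue in the Cxcr2 values was not tested.

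Of the homeostatic chemokines Cxcl12 and Ccl19, the highest values were in the old female library. Cxcl12, the stromal ligand of Cxcr4, was at 1.41 RPKM in the young male library, 1.11 RPKM in the young female, 1.38 RPKM in the old male and 3.27 RPKM in the old female. Only the old female stood apart, with a ratio of 2.94 in females (interval 2.54 to 3.39) and 0.977 in males (0.839 to 1.14). Cxcr4, its receptor on most leukocytes, was the highest receptor on average, at 10.2, 9.60, 11.9 and 16.1 RPKM, with both old libraries above both young ones. Ackr3, an atypical receptor that removes Cxcl12, was nearly level, between 2.89 and 3.16 RPKM in the 4 libraries. Ccl19 guides dendritic cells and naive T cells through Ccr7, and 39.3% of its 100-base stretches also occur in pseudogene copies, so its values are uncertain. It was at 0.489, 0.499, 0.795 and 2.48 RPKM in the order young male, young female, old male and old female, a ratio of 4.98 in females (interval 2.80 to 9.41) and 1.63 in males (0.824 to 3.32). Ccr7 was low, at 0.326, 0.372 and 0.272 RPKM in the young male, young female and old female, and was not listed in the old male, where the authors' deposited table gives 0.116 RPKM. The fibroblast sums given above, 201 RPKM in the old female and 25.9 to 74.5 RPKM elsewhere, were also highest in the old female. So were those of 4 endothelial markers, at 1.01, 0.808, 2.19 and 7.75 RPKM. The lymphatic endothelial markers, all listed but Prox1, summed to 29.2, 41.2, 34.0 and 23.4 RPKM, lowest in the old female. Pdpn led that sum, while Lyve1 and Flt4 were highest in the old female. The part of these cells in the Cxcl12 and Ccl19 values was not tested.

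Of the further ligands that epithelium can display or secrete, Cx3cl1, or fractalkine, a membrane-anchored chemokine, was at 16.8 RPKM in the young male library, 21.3 RPKM in the young female, 17.6 RPKM in the old male and 11.5 RPKM in the old female. The old female was the low library, at 0.540 of the young female value (interval 0.505 to 0.577), and the males differed by 1.05 (0.988 to 1.11). Its receptor Cx3cr1, on monocytes and resident macrophages, was between 0.821 and 1.26 RPKM, highest in the old female. Cxcr6, the receptor of Cxcl16 on T cells and innate lymphocytes, was at 8.06, 7.52, 6.24 and 5.73 RPKM, so that both old libraries lay below both young ones, with ratios of 0.761 in females (interval 0.669 to 0.869) and 0.775 in males (0.688 to 0.870). Cxcr6 overlaps Fyco1, so its values are uncertain. Ccl27a, the keratinocyte ligand of Ccr10, was at 13.0, 12.7, 7.10 and 12.2 RPKM, low in the old male alone. It shares 26.5% of its 100-base stretches with other copies and touches Il11ra1, so its values are uncertain. Thus Ccl27a and Ccl28, which share Ccr10, had different orders of libraries.

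Ccl20, an epithelial ligand of Ccr6, was at 1.81, 1.34, 1.62 and 0.850 RPKM in the order young male, young female, old male and old female, with both age intervals including 1. Ccr6 was at 0.554, 0.353, 0.158 and 0.259 RPKM, with an old to young ratio of 0.285 in males (interval 0.153 to 0.529) and an interval that included 1 in females. Ccl25 draws T cells through Ccr9 in thymus and gut, and its gene overlaps Elavl1. It stayed between 0.983 and 1.41 RPKM, while Ccr9 was low in the old female alone, at 0.161 RPKM against 0.646, 0.834 and 0.647 RPKM in the young male, young female and old male.

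Ccl17 and Ccl22 attract T cells through Ccr4 and are made by dendritic cells. Ccl17 was at 1.82 RPKM in both young libraries, 0.954 RPKM in the old male and 0.662 RPKM in the old female, a ratio of 0.364 in females (interval 0.174 to 0.711) and 0.523 in males (0.304 to 0.924). Ccl22 was at 2.36, 2.02, 1.44 and 1.91 RPKM, again with both old libraries below both young ones, but only the interval in males lay below 1. Ccr4 went the same way, at 0.683, 0.558, 0.292 and 0.331 RPKM, and its intervals lay below 1 in both sexes. Markers of the cells concerned were mixed. The Langerhans cell marker Cd207 was at 1.70, 2.20, 0.525 and 0.278 RPKM, lower in the old, while Epcam, the other gene of that list, was at 120, 119, 114 and 135 RPKM. The dendritic cell markers, all listed but Clec9a, summed to 4.08, 3.13, 2.01 and 4.15 RPKM, lowest in the old male. The 6 T cell markers summed to 11.01, 13.9, 9.47 and 8.01 RPKM. The part of these cells in the Ccl17, Ccl22 and Ccr4 values was not tested.

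Xcl1, or lymphotactin, made by natural killer and CD8 T cells, was at 0.729, 1.14, 0.274 and 0.283 RPKM in the order young male, young female, old male and old female. Both old libraries were below both young ones, on 5 and 6 reads in the old, and its receptor Xcr1 was listed only in the young male, at 0.152 RPKM. Cxcl9 and Cxcl10, interferon-induced ligands of Cxcr3, stayed low. Cxcl10, which lies within Art3, was at 0.991, 1.65, 0.834 and 1.13 RPKM, highest in the young female as the interferon-induced genes were, and Cxcl9 was between 0.284 and 0.596 RPKM. Cxcr3 was between 0.157 and 0.282 RPKM, with at most 19 reads. Ccr8, the receptor of Ccl8 in the mouse, was at 0.246, 0.295 and 0.295 RPKM in the young male, young female and old female. These values rest on 12 to 15 reads. It was not listed in the old male, where the authors' deposited table gives 0.0992 RPKM. Its age interval in females ran from 0.405 to 2.17, too wide to tell whether its level followed that of Ccl8. Ccr2, the monocyte receptor, was at 2.40, 2.34, 2.47 and 3.52 RPKM, highest in the old female.

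The atypical receptors differed from one another. Ackr1 captures inflammatory chemokines on venules and red cells, and was at 0.172 RPKM in the young male, 0.808 RPKM in the old male and 2.45 RPKM in the old female. The young female did not list it, and the authors' deposited table gives 0.103 RPKM there. Both old libraries were above both young ones, with a ratio of 4.69 in males (interval 2.13 to 10.4), though the gene overlaps Cadm3, with which it shares 13.6% of its 100-base stretches, and its reads may be split between the genes. Its mean of 0.858 RPKM kept it out of the 34 analysed members. Ackr2, the scavenger of inflammatory CC chemokines, was listed only in the old libraries, at 0.158 RPKM in the male and 0.170 RPKM in the female. Ackr4, which removes Ccl19 and Ccl25 and lies within Acad11, was higher in the female library at each age, without passing the test. It was at 0.724 RPKM in the young male, 1.54 RPKM in the young female, 0.549 RPKM in the old male and 1.42 RPKM in the old female. Both female libraries were above both male ones, and the averaged log2 difference of females and males was 0.60 ± 0.20 (SE, limma adjusted p = 0.9999). Ccrl2, which presents chemerin, was at 0.836, 1.12, 1.45 and 1.69 RPKM, with both old libraries above both young ones and ratios of 1.52 in females (interval 1.15 to 1.98) and 1.73 in males (1.30 to 2.34).

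The sexes were also compared at each age. At 3 months 2 members, Ccl5 and Ccl6, were at least 2-fold higher in the female library and 0 were lower, where 0.364% of all genes were that much higher and 0.976% lower, 1.34% in all. At 2 years 3 members, Ccl8, Ccl9 and Cxcl2, were higher in the female and 0 lower. Of all genes 1.78% were higher and 1.98% lower, 3.76% in all. At a pseudocount of 0.1 in place of 1, 5 members were apart at 3 months, beside 2.38% of all genes. Cxcl2, Cxcr1 and Cxcr2 among them were lower in the female. At 2 years 9 were then apart, beside 5.93%, and Cxcl5 among them was lower in the female. The members' median log2 ratio of female to male was -0.09 at 3 months and 0.31 at 2 years, beside -0.01 and 0.07 for all genes. At 2 years 27 of the 34 members had a higher value in the female. The matching share was not counted over all genes, whose median also lay above 0. The 27 are therefore not a result about the family. The sex term of the limma fit called 0 of the 34 members and 0 of all genes (0.0%), with 2 members and 74 genes at an unadjusted p under 0.05. The 2 were Ackr4, given above, and Cxcl5, which was lower in females by an averaged log2 difference of -0.84 ± 0.18 (SE, limma adjusted p = 0.9999). The 4 comparisons share libraries, so their values are set side by side and not compared with one another.

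Genes that handle chemokines or carry their signal were followed as a list of 41 symbols outside the name rule. Among them were G protein subunits, phosphoinositide 3-kinases, arrestins and regulators of G protein signalling. Of the 41 symbols 39 were listed. Those not listed, Darc and Ccbp2, are older symbols of the family members Ackr1 and Ackr2. Of the list 32 genes were analysed. In females 2 were higher in the old library by 2-fold or more and 1 was lower, and in males 1 was higher and 0 were lower. The shares of all genes, 5.33% and 3.37% in females and 0.827% and 0.215% in males, are given for comparison, and the list's counts are near them. The median log2 ratio of old to young was 0.03 in females and -0.06 in males, beside 0.07 and -0.01 for all genes. The difference between this list and the family was not tested.

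The authors' deposited table of differences lists 15 members as higher and 4 as lower in the old female library, and 12.4% and 4.66% of all 15816 genes. In males the authors' deposited table lists 8 members as higher and 8 as lower in the old, and 4.15% and 1.92% of all genes. Lower in the old male in the authors' deposited table were Cxcr1, Ccl4, Ccl3, Ccr6, Xcl1, Ccr4, Ccr8 and Ccr7. Xcl1 was the member that the authors' deposited table gives as lower in the old of both sexes, by 4.05-fold in females and 2.66-fold in males. Across the family, 95% counting intervals of the RPKM ratio excluded 1 for 30 of 48 members with age in females, where 68.3% of all genes listed in both libraries did so, and for 24 of 46 with age in males (50.2% of all genes). They excluded 1 for 17 of 47 members between the sexes at 3 months (52.9% of all genes) and for 30 of 50 at 2 years (63.1%). These counts are near or below those shares. For the remaining members a difference was not detectable at this depth.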

How the data were processed

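RNA-seq tables of 4 lower eyelid libraries were used, 1 per age and sex. Per the submitters' processing notes, TopHat and Cufflinks were used with the build mm10. The sources used here do not state the counting rule, the strand setting or the gene models. RPKM as deposited by the authors is scaled to gene length and library total, and their tables stop at the lowest level named above. The column that the file headers call a raw count was read as summed base coverage, a signal deposited by the authors. Among genes with less than 3000 bases of it, 26.3% to 29.5% are whole multiples of 100 and under 1% of 99 or 101, so that 100 bases were taken as 1 read. These are estimates and not whole reads, and no count test was run. The authors' deposited tables of differences hold RPKM, a p-value and a signed fold, a score that is negative where the young library is higher, and are used only where named.

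Missing genes were set to 0, 2 duplicated symbols were left out, and the 12094 genes with a mean of at least 1 RPKM were analysed as log2(RPKM + 1). The averaged fit used limma 3.58.1 in R 4.3.3, with moderated variances and an intensity trend, and was tested on simulated data. Its p-values reflect no more than the spread of these 4 libraries. Exact Clopper-Pearson intervals at 95% came from scipy 1.17.1. Alternatives were pseudocounts of 0.1 and 5, no filter, missing genes at the lowest listed level, median scaling and leaving out each library. The family, the role groups, the marker lists and the pathway list were chosen with earlier results of these data known. Any listed member could be named, and other genes only from the lists. Values of 1 family member and of 1 marker gene are not reported here. Positions were matched to GENCODE vM21 of the same build, and promoters come from the RefSeq table, which holds 41 of the 54 members.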

Additional observations from a re-analysis of the deposited data

Results flagged for a closer look

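For 4 of the 34 analysed members, the age ratio was at least 2-fold in one sex and had the opposite sign in the other. The same held for 651 of the 12094 analysed genes (5.38%). With 1 library per group the difference between the sexes was not tested. For Cxcl2 the log2 ratio of old to young was 1.48 in females and -0.55 in males, a difference of 2.03. Cxcr2 had 1.02 in females and -0.45 in males, a difference of 1.47. Ccl9 had 1.20 and -0.04, a difference of 1.24, and Cxcl12 had 1.02 and -0.02, a difference of 1.04, so that the males of these last genes were close to 0. The old female library, whose tissue markers stood apart, takes part in each of these ratios. With a pseudocount of 5 none of the 4 remained 2-fold apart in females, and under median scaling Cxcl12 and Cxcr2 did not.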

How the results depend on the processing

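No call changed direction under any alternative. With a pseudocount of 5 the members at least 2-fold apart numbered 3 in place of 10 for age in females, 0 in place of 5 for age in males and 0 in place of 3 between the sexes at 2 years, where 4.62%, 0.43% and 1.98% of all genes were apart. With a pseudocount of 0.1 they numbered 8 for age in males, beside 2.1% of all genes. Between the sexes they numbered 5 in place of 2 at 3 months, beside 2.38%, and 9 at 2 years, beside 5.93%. The calls gained in males, Ccl3, Ccl4 and Cxcr1, were lower in the old. Those gained at 3 months, Cxcl2, Cxcr1 and Cxcr2, were lower in the female. At 2 years 8 were higher in the female and 1, Cxcl5, was lower. Of the 5 calls in males, Ccl8, Ccl28, Cxcl13, Ccl11 and Cxcl5, all fell below 2-fold with the pseudocount of 5, as the scale compresses values of a few RPKM. Median scaling ended the calls of Cxcl12 and Cxcr2 in females, both just past 2-fold. No filter and missing genes at the lowest listed level left each of these counts within 1.5 times. Leaving out 1 library in turn, the limma age fit called 0 to 4 members, the 4 without the old male library, and the sex fit called 0 in each case. No paired analysis was possible because each group has 1 library and the labels give no replicate numbers. Depth limits the members below 1 RPKM most, several of which rest on fewer than 20 reads, and no setting stands in for the missing replicates.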

Other observations

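Some chemokines and chemoattractants carry symbols outside the family's naming rule. Ppbp, the precursor of platelet basic protein and a ligand of Cxcr2, was at 11.7 RPKM in the young male library, 9.01 RPKM in the young female, 21.8 RPKM in the old male and 1.42 RPKM in the old female. The old female was the low library, while it held the highest value of Cxcr2. Pf4, platelet factor 4, did not follow Ppbp and was at 1.48, 1.46, 2.38 and 5.01 RPKM in the same order. Rarres2, which codes for chemerin, was at 0.660, 0.439, 2.56 and 6.07 RPKM, with both old libraries above both young ones. Its signalling receptor Cmklr1 was at 1.32, 1.08, 0.917 and 2.50 RPKM, and was high in the old female alone.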
